A study of Homo sapiens with 43 samples.

Results

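Cells of the line HMC3 that had carried 0.01 µM dexamethasone for 3 days and had then been kept for 3 days in ordinary medium without hormone were compared, on day 6, with cells taken through the same steps with the ethanol vehicle. The libraries were chosen by their treatment labels alone: 3 of dexamethasone 0.01 µM (replicates 1, 2 and 3) and 4 of vehicle, so 7 of the 43 libraries of the series. The vehicle libraries were 1 each from the flasks that matched hydrocortisone 10 µM (replicate 1), hydrocortisone 0.01 µM (replicate 2), dexamethasone 1 µM (replicate 4) and dexamethasone 0.01 µM (replicate 3), and they are given below in that order. Only the last was the vehicle of the same hormone and dose; the ethanol content of each is not given in the sources used here. On day 3 the cells of each flask had been counted, and equal numbers of viable cells were seeded again, so every day 6 library came from a flask that also gave day 3 cells. HMC3 is an immortalised human line sold as microglia, which are the macrophages that live in the brain. The same dose sampled at the end of the exposure (3 libraries, with 3 of its own vehicle), dexamethasone 1 µM after washout (3 libraries) and hydrocortisone after washout (10 or 0.01 µM, 3 libraries each) serve for comparison.

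Dexamethasone is a synthetic glucocorticoid. It binds the glucocorticoid receptor (gene NR3C1), a transcription factor that waits in the cytoplasm with heat shock chaperones and, once bound by hormone, moves to the nucleus, where it raises the transcription of genes such as FKBP5, TSC22D3 and PER1. The receptor also lowers other genes, in part by hindering the factors AP-1 and NF-kB, which is the basis of its use against inflammation. In microglia, as in other macrophages, glucocorticoids are known for dampening cytokine production. A washout asks which of the changes made during exposure are still there once the hormone has been removed.

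The 7 libraries held 9907907 to 19733778 counts. Genes of the ribosomal RNA repeats took 11.11%, 27.15% and 52.13% of the counts in the hormone libraries and 19.22% to 77.12% in the vehicle libraries; the highest share, in the vehicle of dexamethasone 1 µM, left 3187758 counts for all other genes, against 6348453 to 17542039 in the other 6. Over the 7 libraries, 3 of the 7 genes analysed from a list of 24 markers of microglia and macrophages exceeded a median of 1 CPM (non-ribosomal counts scaled to a library of fixed size). CSF1R and TREM2, receptors that define microglia, stood at medians of 0.198 and 0.190 CPM and had no count in 2 of the 7 libraries, whereas among 14 markers of fibroblasts and pericytes the median exceeded 1 CPM for 11 and 100 CPM for 7. The label microglia is therefore used here as the name of the line and not as a cell type shown by its markers. The summed markers of oligodendrocytes ranged from 102 to 108 CPM in the hormone libraries and from 83.4 to 101 CPM in the vehicle libraries, nearly all of it CNP; the sums of the microglia (110 to 118 against 116 to 139), astrocyte (206 to 230 against 207 to 246), neuron (92.8 to 103 against 84.5 to 103), endothelial (3.15 to 4.57 against 2.2 to 5) and fibroblast and pericyte markers (4810 to 5560 against 4300 to 5010) overlapped between the groups. The part of these differences in the results below was not tested. In bulk RNA, fewer cells of a kind and less RNA per cell cannot be told apart.

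After the washout, 14 of 16816 genes tested differed from vehicle (0.0833%; n = 3 and 4), 8 of them higher (0.0476%) and 6 lower (0.0357%). The threshold was an adjusted p of 0.05 by the quasi-likelihood test of edgeR with Benjamini-Hochberg adjustment. Each vehicle library was its own group in this fit of all 43 libraries, so the spread among the 4 did not enter the p-values. With the 7 libraries fitted alone and vehicle as 1 group, that spread entered. Then 2 genes passed, 1 of them shared with the 14 (IGFBP5). In 11 of them the mean level reached a log2 CPM of 1 and the hormone libraries did not overlap the vehicle libraries: the arrestin-like protein gene TXNIP, ADPRHL1, DHRS2, CRISPLD2 and NPTX1 rose, and IGFBP5, ABI3BP, PSG1, ALDH6A1, INHBA and NIBAN1 fell. The largest of these rises was 2.76-fold (TXNIP) and the largest fall 2.18-fold (IGFBP5). The libraries of the groups did not overlap for 6.67% of all genes tested, and 7.09% had an unadjusted p under 0.05. The 95% interval of a log2 change had a median half-width of 0.227 over the 11670 genes whose mean level reached that limit, and for 98.77% of them the whole interval lay within 1 of zero. Without hormone replicate 2 no gene passed the same edgeR test, with 835 genes at an unadjusted p under 0.05. Without the vehicle library of 77.12% ribosomal RNA only IGFBP5 passed (log2 change -1.09, adjusted p = 0.02466), and with the 4 vehicle libraries taken as 1 group 6 genes passed: IGFBP5, ABI3BP, PSG1, INHBA, NIBAN1 and NPTX1. With all 7 libraries above 75% ribosomal RNA left out of the fit, that vehicle library among them, 10 genes passed, 6 of them shared with the 14 (IGFBP5, ABI3BP, PSG1, ADPRHL1, DHRS2 and NPTX1).

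Levels are given as CPM of the TMM-scaled library. The 6 genes that fell are described first. IGFBP5, which encodes a secreted protein that binds insulin-like growth factors (GRCh38 chromosome 2, 216672105 to 216695525, minus strand), stood at 14.6, 11.3 and 11.2 CPM in the hormone libraries and at 25.2, 23.8, 28.97 and 30.6 CPM in the vehicle libraries. Every hormone library lay below every vehicle library, and the highest hormone value was well under the lowest vehicle value. The log2 change was -1.12 (SE 0.18, adjusted p = 0.003184).

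INHBA (chromosome 7, 41667168 to 41705834, minus strand) encodes the subunit that forms activin A, a signalling protein of the TGF-beta family. Its levels were 25.5, 24.4 and 20.5 CPM after hormone and 33.2, 31.4, 38.4 and 29.5 CPM after vehicle. The groups did not overlap, with 29.5 CPM in the vehicle of the same dose closest to the hormone libraries; the log2 change was -0.49 (SE 0.098, adjusted p = 0.01942). FST, which encodes follistatin, a secreted protein that binds and blocks activin, was listed with INHBA among genes of this pathway and stood at 17.97, 19.6 and 16.4 CPM after hormone and 26.1, 34.2, 30.6 and 33.0 CPM after vehicle. Its libraries did not overlap either, but its log2 change of -0.78 (SE 0.19) did not pass the test (adjusted p = 0.1823). FST passed in 6 of 20 alternatives at similar size, with DESeq2 (-0.78, adjusted p = 0.001161) and with the day 6 libraries fitted alone (-0.77, adjusted p = 0.001751) among them.

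ABI3BP encodes a protein of the extracellular matrix (chromosome 3, 100749156 to 100993515, minus strand). It measured 8.89, 7.07 and 9.13 CPM in the hormone libraries and 11.7, 14.4, 18.3 and 15.7 CPM in the vehicle libraries, so no hormone library reached a vehicle one (log2 change -0.82, SE 0.15, adjusted p = 0.009735). PSG1 belongs to the pregnancy-specific glycoproteins, secreted relatives of carcinoembryonic antigen best known from placenta (chromosome 19, 42866464 to 42879822, minus strand). Its levels were 36.6, 28.1 and 37.6 CPM after hormone against 55.0, 75.7, 60.2 and 51.2 CPM after vehicle (log2 change -0.81, SE 0.15, adjusted p = 0.01942). Both groups were compact and apart, though reads of these near-identical genes may be split among them by the counting, so the value for PSG1 alone is uncertain.

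The other 2 falls were small. ALDH6A1, a mitochondrial dehydrogenase of valine breakdown (chromosome 14, 74056850 to 74084493, minus strand), stood at 16.1, 13.3 and 17.2 CPM after hormone and 20.5, 18.4, 23.6 and 25.7 CPM after vehicle (log2 change -0.50, SE 0.11, adjusted p = 0.04544). NIBAN1, a protein of the cell stress response (chromosome 1, 184790724 to 184974550, minus strand), stood at 19.5, 17.2 and 18.9 CPM after hormone and 23.5, 20.9, 27.7 and 28.04 CPM after vehicle (log2 change -0.43, SE 0.085, adjusted p = 0.01942). In both genes the 2 hydrocortisone vehicles lay nearer to the hormone libraries than the 2 dexamethasone vehicles. IGFBP5 (AC007563.2), INHBA (INHBA-AS1) and ALDH6A1 (BBOF1) each overlap a gene on the opposite strand, and ABI3BP and CRISPLD2 overlap genes on both strands; whether counting used strand is not given in the sources used here, so reads of these partners cannot be told apart.

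Among the 5 rises that met the limits of level and overlap, TXNIP had the largest change. It encodes a protein that binds thioredoxin and restrains glucose uptake (chromosome 1, 145992435 to 145996600, minus strand). Its levels were 50.5, 62.8 and 33.0 CPM in the hormone libraries and 23.4, 24.5, 11.3 and 15.1 CPM in the vehicle libraries. Both groups were widely spread, yet the lowest of the first was above the highest of the second (log2 change 1.46, SE 0.28, adjusted p = 0.03056). ARRDC4, which encodes a related alpha-arrestin, stood at 5.81, 7.07 and 5.92 CPM against 4.23, 4.03, 2.75 and 3.37 CPM, with no overlap, and missed the threshold (log2 change 0.82, adjusted p = 0.1316).

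CRISPLD2 encodes a secreted protein and is a known target of the glucocorticoid receptor in fibroblasts and airway smooth muscle (chromosome 16, 84819984 to 84920768, plus strand). It measured 8.74, 14.4 and 10.7 CPM after hormone and 8.71, 7.10, 4.53 and 5.74 CPM after vehicle. Hormone replicate 1 and the vehicle of hydrocortisone 10 µM were almost equal, and the gap between the groups rests on the other libraries (log2 change 0.83, SE 0.15, adjusted p = 0.01942). NPTX1, a secreted neuronal pentraxin that gathers receptors at synapses (chromosome 17, 80467148 to 80477843, minus strand), stood at 34.8, 40.3 and 27.4 CPM against 26.9, 23.4, 18.5 and 21.7 CPM. Here hormone replicate 3 was barely above the highest vehicle library, and the log2 change was 0.61 (SE 0.097, adjusted p = 0.002175, the smallest of all genes tested).

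DHRS2, a short-chain dehydrogenase (chromosome 14, 23630115 to 23645639, plus strand), stood at 3.77, 4.40 and 3.89 CPM after hormone and 2.24, 2.09, 1.62 and 2.04 CPM after vehicle. The groups were well apart (log2 change 1.02, SE 0.22, adjusted p = 0.04544). ADPRHL1, a relative of the ADP-ribosylhydrolases (chromosome 13, 113399610 to 113453524, minus strand), was low: 1.48, 1.88 and 1.69 CPM against 0.713, 0.456, 0.324 and 1.42 CPM. Its level in the vehicle of the same dose, 1.42 CPM, was close to that of hormone replicate 1, so the log2 change of 1.42 (SE 0.27, adjusted p = 0.01942) rests on the other 3 vehicle libraries.

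**Figure D1:**
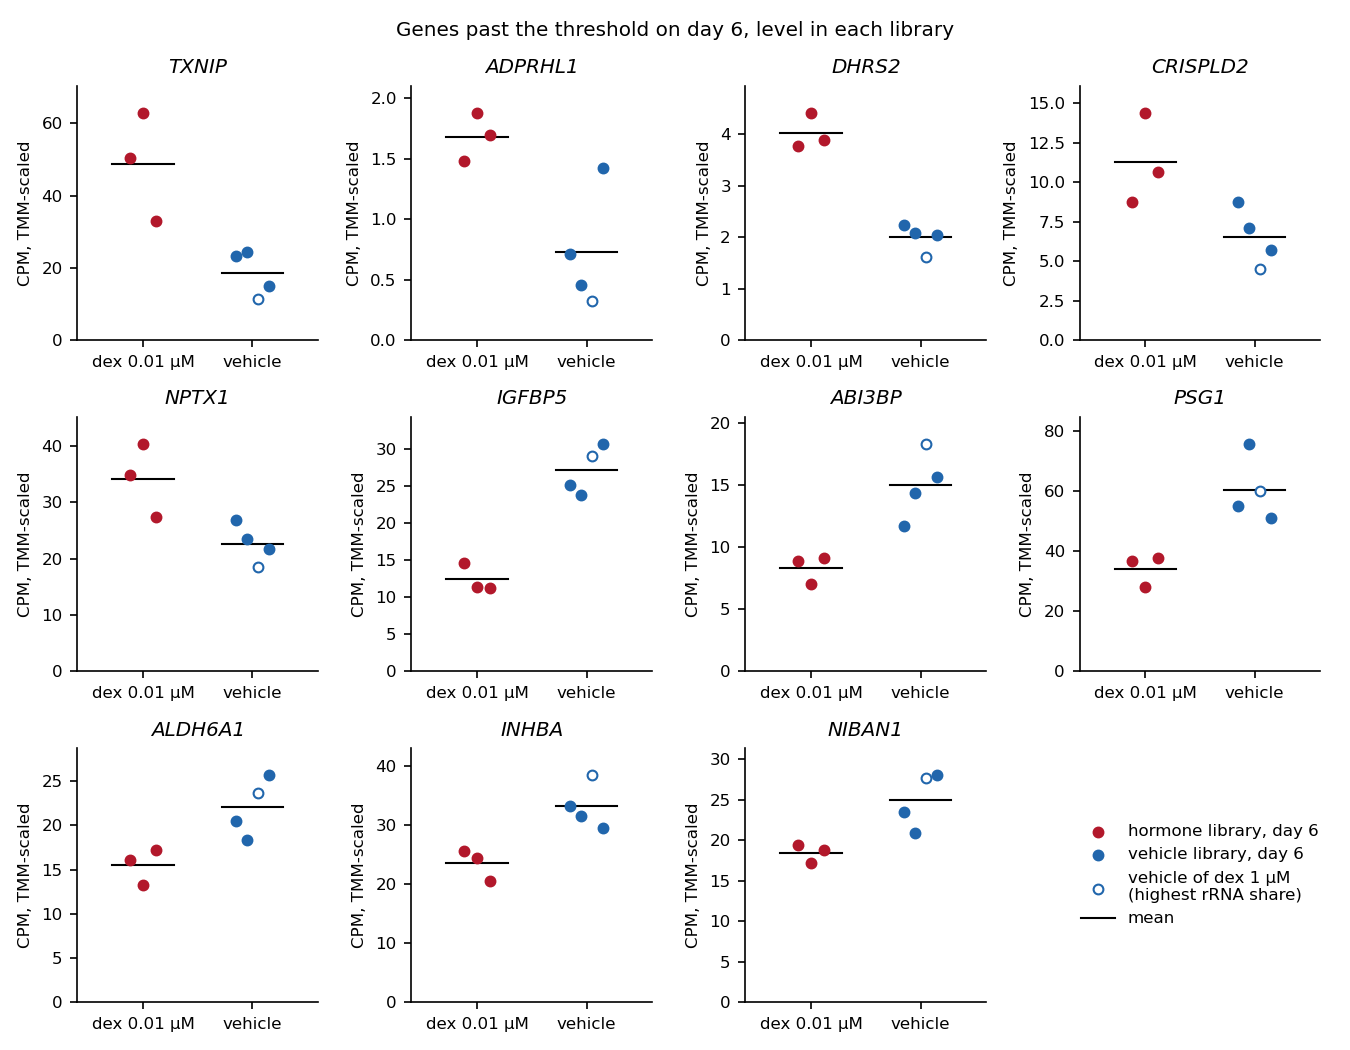
Levels of the 11 genes in each of the 3 dexamethasone 0.01 µM libraries (red) and the 4 vehicle libraries (blue) of day 6, in CPM of the TMM-scaled library on linear axes that start at 0; the open circle is the vehicle library of 77.12% ribosomal RNA and the bars are group means. IGFBP5, PSG1 and DHRS2 show wide gaps, while in CRISPLD2, NPTX1 and ADPRHL1 the nearest libraries of both groups almost touch.

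The other 3 genes past the threshold were measured with few counts, and each had no count in the vehicle library of 77.12% ribosomal RNA. ABCG2, an efflux transporter, had 60, 44 and 24 counts after hormone and 46, 55, 0 and 21 after vehicle, and its CPM overlapped between the groups. ZC3H11A, a zinc finger protein whose gene contains ZBED6, had 12, 11 and 9 counts against 6, 4, 0 and 4, and the unnamed transcript ENSG00000279369, which overlaps STRADA and LIMD2, had 22, 15 and 13 against 13, 10, 0 and 9. Their fitted log2 changes of 2.44, 2.80 and 2.50 depend on that 0 and are no bounds. Without that library they were 0.47, 1.57 and 0.98 and none passed (adjusted p = 0.9999, 0.5193 and 0.7967), so these 3 rises are uncertain.

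Sequences just upstream of the start are shown for CRISPLD2 and IGFBP5, the rise and the fall with the largest day 6 change among the genes that passed the test on both days and have 1 start in the promoter table (RefSeq, GRCh38.p14; 250 bases, 5′ to 3′ on the strand of the gene). CRISPLD2 is chr16:84819735-84819984 on the plus strand and IGFBP5 is chr2:216695550-216695799 on the minus strand.
CRISPLD2: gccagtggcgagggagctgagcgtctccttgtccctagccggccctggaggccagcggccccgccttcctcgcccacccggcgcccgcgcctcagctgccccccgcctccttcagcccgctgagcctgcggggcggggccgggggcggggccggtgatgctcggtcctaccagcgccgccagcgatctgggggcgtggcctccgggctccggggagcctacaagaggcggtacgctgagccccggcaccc
IGFBP5: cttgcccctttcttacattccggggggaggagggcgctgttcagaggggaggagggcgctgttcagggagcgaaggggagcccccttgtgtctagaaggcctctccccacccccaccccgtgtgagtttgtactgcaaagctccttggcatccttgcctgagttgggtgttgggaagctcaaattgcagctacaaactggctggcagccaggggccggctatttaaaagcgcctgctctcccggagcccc
Of the 14 genes, 11 have an entry in that table. Their windows of 250 bases were searched on both strands for the half-site of the glucocorticoid receptor (AGAACA or TGTTCT), its palindrome (AGAACA, any 3 bases, TGTTCT, which contains both half-sites) and the AP-1 site (TGANTCA), and none held any of them, so no base is in capitals. Among 35116 promoters of the table, 12.4% held the half-site, 0.00285% the palindrome and 6.57% the AP-1 site. A missing match says only that these letters are not in this window.

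On day 3, at the end of the exposure, the same dose had changed 2353 genes against its own vehicle (14% of those tested, n = 3 and 3; 1034 rose, 6.15%, and 1319 fell, 7.84%). Of the 14 genes past the threshold on day 6, 8 had also passed on day 3 in the same direction: CRISPLD2, ADPRHL1, NPTX1 and ENSG00000279369 rose, and INHBA, PSG1, ABI3BP and IGFBP5 fell. The comparisons use different libraries, although the day 6 flasks were seeded from day 3 flasks. Read from day 3 forward, 4 of the 1034 rises passed again as rises and 4 of the 1319 falls as falls, and none passed in the opposite direction.

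The sizes differed between the days. On day 3 IGFBP5 measured 3.38, 2.24 and 4.42 CPM under hormone and 20.6, 19.9 and 16.9 CPM under vehicle, a log2 change of -2.55 (SE 0.20), against -1.12 after washout. CRISPLD2 measured 52.6, 58.9 and 59.9 CPM under hormone and 7.26, 7.28 and 10.1 CPM under vehicle, a log2 change of 2.79 (SE 0.18), against 0.83 after washout. PSG1 went from -2.61 to -0.81, ABI3BP from -1.77 to -0.82, INHBA from -1.22 to -0.49 and ADPRHL1 from 4.02 to 1.42. NPTX1 stood at 0.62 (SE 0.10) on day 3 and at 0.61 (SE 0.097) on day 6.

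The difference between the days was tested directly, with each day set against the mean of its 4 vehicle groups. It passed for 1101 genes (6.55%; the difference was above zero in 4.01% and below zero in 2.54% of genes tested) and for 9 of the 14, among them CRISPLD2 (log2 difference -1.81, adjusted p = 1.327e-07), PSG1 (1.74, adjusted p = 1.74e-07), IGFBP5 (1.41, adjusted p = 7.392e-05) and INHBA (0.69, adjusted p = 0.0001963), all 4 smaller after washout. For NPTX1 it was 0.03 (adjusted p = 0.9387), which does not show that the changes were equal. The 14 genes were chosen by their day 6 change, which is part of this difference, so the count of 9 is a description.

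Of the 14 genes, 6 had not passed on day 3. TXNIP measured 73.3, 78.2 and 47.1 CPM on day 3 under hormone against 41.0, 42.4 and 25.5 CPM under vehicle, with no overlap, and narrowly missed (log2 change 0.87, adjusted p = 0.05678); its difference between the days did not pass (0.27, adjusted p = 0.7566). DHRS2 and ALDH6A1 differed between the days: their log2 changes were -0.14 and 0.21 on day 3 and 1.02 and -0.50 on day 6 (test of the difference, adjusted p = 0.02022 and 0.0009836). NIBAN1 had -0.15 on day 3 and -0.43 on day 6, and that difference did not pass (adjusted p = 0.5695). ABCG2 and ZC3H11A, the low genes described above, had -0.08 and 0.33 on day 3.

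**Figure D2:**
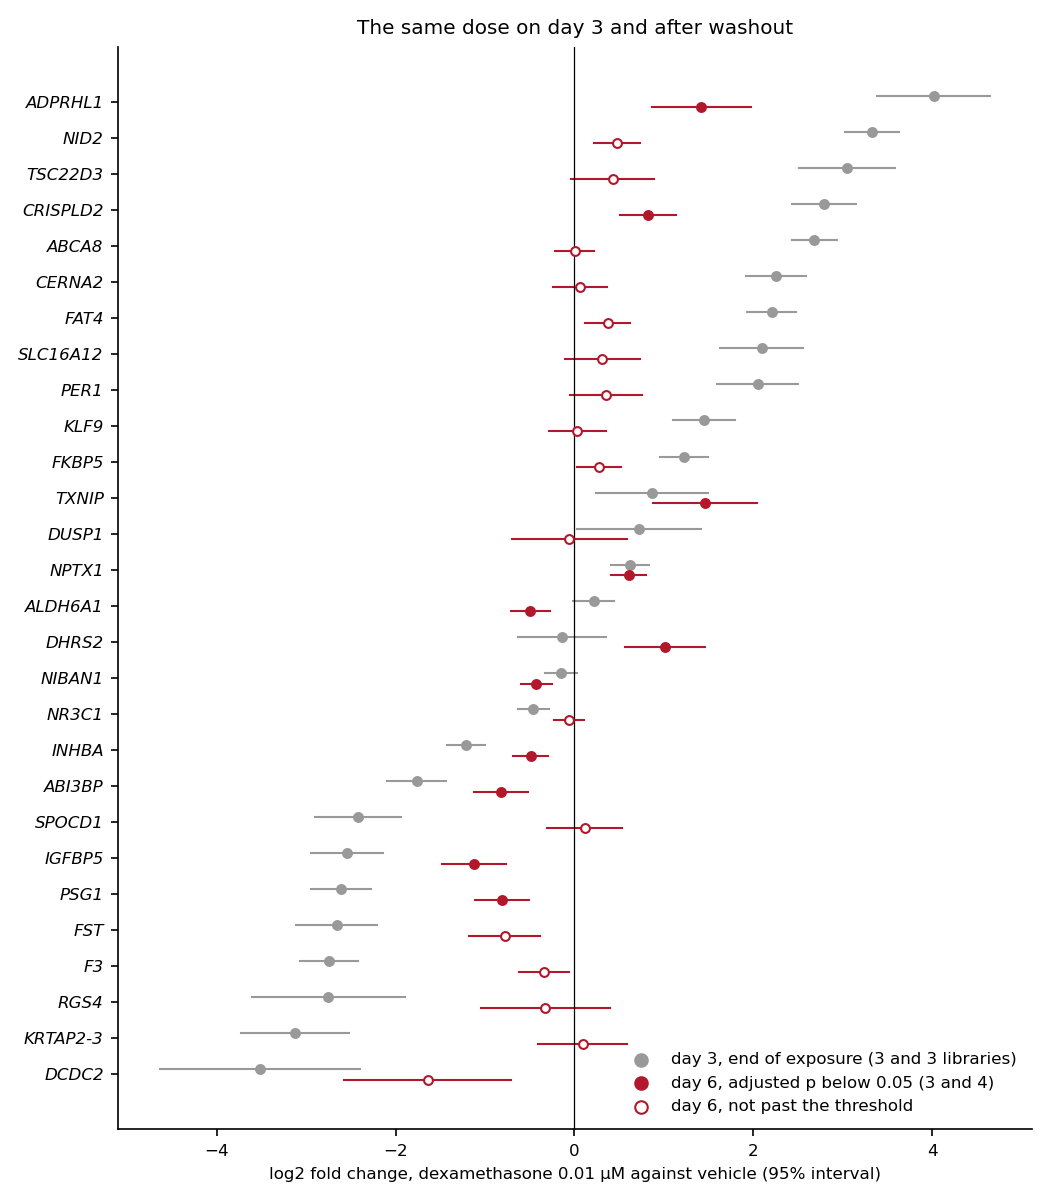
Log2 fold change of dexamethasone 0.01 µM against vehicle with its 95% interval for genes named in the text, on day 3 (grey) and after washout (red, filled where the adjusted p was below 0.05), ordered by the day 3 value. For the genes with the largest grey values the red points lie nearer to zero than the grey ones. Some are close to zero (ABCA8 at 0.002, KRTAP2-3 at 0.09) and others are not (DCDC2 at -1.64, ADPRHL1 at 1.42). For NPTX1 the points are nearly equal (0.62 and 0.61).

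Several genes with large day 3 changes stood close to vehicle on day 6. ABCA8, a lipid transporter of the ABC family, measured 85.4, 85.6 and 63.8 CPM on day 3 under hormone, and 14.1, 13.2 and 12.8 CPM after washout against 13.9, 12.5, 13.6 and 13.4 CPM in the vehicle libraries. The washout values of both groups were interleaved (log2 change 0.00, 95% interval -0.22 to 0.22), where the day 3 change had been 2.69. KRTAP2-3, a hair keratin-associated protein, went from -3.13 to 0.09, SPOCD1 from -2.43 to 0.11 and the long non-coding RNA CERNA2 from 2.25 to 0.07.

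Some large day 3 changes left values on the same side of zero that did not pass the main test. NID2, the basement membrane linker nidogen 2, had risen by 3.33 and stood at 0.48 on day 6 (adjusted p = 0.1853): 5.13, 4.98 and 3.30 CPM after hormone against 2.70, 2.81, 4.86 and 2.89 CPM, where the high vehicle value came from the library of 77.12% ribosomal RNA. NID2 passed without the libraries above 75% ribosomal RNA (0.69, adjusted p = 0.04218) and without hormone replicate 3 (0.65, adjusted p = 0.02744). DCDC2, a microtubule-binding protein of cilia and neurons, had fallen by 3.52 on the log2 scale and stood at -1.64 (SE 0.46, adjusted p = 0.2426), with 3.71, 2.16 and 5.92 CPM after hormone and 7.39, 14.4, 15.4 and 13.9 CPM after vehicle. Its groups did not overlap, but the libraries of each group were widely spread. DCDC2 passed in 2 of 20 alternatives, with DESeq2 (-1.66, adjusted p = 1.13e-08) and with the ribosomal RNA genes left out (-1.68, adjusted p = 5.96e-05). F3, tissue factor, which starts blood clotting, went from -2.75 to -0.34 (adjusted p = 0.5561), RGS4, a brake on G protein signalling, from -2.76 to -0.33 (adjusted p = 0.9136), the atypical cadherin FAT4 from 2.21 to 0.37 (adjusted p = 0.375) and the creatine transporter SLC16A12 from 2.09 to 0.31 (adjusted p = 0.798).

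Over whole sets, 656 of the 1034 genes that rose on day 3 were above zero on day 6 with a median log2 change of 0.0415, and 841 of the 1319 genes that fell were below zero with a median of -0.0383. Of all genes tested, 8979 were above and 7837 below zero, with a median of 0.0129. Among the genes that changed at least 2-fold on day 3 and reached the same limit of level, the 84 rises had medians of 1.22 on day 3 and 0.218 on day 6 (67 above zero), and the 124 falls had -1.36 and -0.17 (93 below zero). The day 6 interval excluded the day 3 value for 82 of these 84 and all 124. This count leaves out the error of the day 3 value, and the vehicle sets of the days differ. The direct test of the difference between the days passed for 69 of the 84 and 109 of the 124, against 6.55% of all genes tested. The day 3 values chose these sets, which favours a smaller change on day 6, so all these values are given as a description. Day 3 counts moved with the libraries used: 3633 genes passed against all 4 vehicle groups of that day and 1522 without libraries above 75% ribosomal RNA, of which hormone replicate 3 of day 3 had 94.86%.

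TSC22D3, FKBP5, PER1, KLF9 and DUSP1, textbook targets of the receptor, did not pass the test on day 6. TSC22D3, which encodes the glucocorticoid-induced leucine zipper, measured 3.52, 4.40 and 3.30 CPM after washout and 2.55, 2.55, 3.08 and 2.99 CPM in the vehicle libraries; the hormone libraries were all slightly higher (log2 change 0.43, SE 0.23, adjusted p = 0.719), after 3.05 on day 3. FKBP5, a co-chaperone that lowers the affinity of the receptor for hormone, measured 29.9, 36.5 and 41.8 CPM against 32.9, 28.5, 30.4 and 27.5 CPM. Its groups overlapped (log2 change 0.28, SE 0.12, adjusted p = 0.6162), after 1.23 on day 3.

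The clock gene PER1 stood at 0.35 (adjusted p = 0.7369) after 2.05 on day 3, and the transcription factor KLF9 at 0.03 (adjusted p = 0.9911) after 1.45. DUSP1, a phosphatase that switches off MAP kinases, had not passed on day 3 (0.72, adjusted p = 0.1694) and stood at -0.06 on day 6 (95% interval -0.70 to 0.59). The receptor gene NR3C1 had fallen by 0.46 on day 3 and stood at -0.06 (adjusted p = 0.9376), with 69.7, 76.5 and 66.1 CPM after hormone against 80.6, 78.6, 70.6 and 67.0 CPM after vehicle. Among 40 tested members of a list of receptor targets, 1 passed on day 6 (CRISPLD2; 2.5% of the list, against 0.0833% of all genes), and 15 passed on day 3 (13 higher and 2 lower; 37.5%, against 14% of all genes). The list's median was 0.0712 on day 6 and 0.46 on day 3, and 26 of 40 members were above zero on day 6. Other members included the cationic amino acid transporter SLC7A2 (0.26, adjusted p = 0.378) and NFKBIA, the inhibitor of NF-kB (0.29, adjusted p = 0.609), both of which had risen on day 3 (0.87 and 1.10). Of 13 receptor, chaperone and steroid enzyme genes, none passed on day 6 and 9 had passed on day 3 (69.2%, against 14% of all genes). The chaperones HSP90AB1 and FKBP4, for example, stood at 0.04 and -0.02 after -0.34 and -0.52.

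Of 27 gene lists, cell type markers included, 4 had a member past the threshold on day 6, 1 each: receptor targets (CRISPLD2), activin, TGF-beta and YAP/SRF genes (INHBA), oxidative stress (TXNIP) and pregnancy-specific glycoproteins (PSG1). All 10 pregnancy-specific glycoproteins were below zero, with a median of -0.322 and a range from -1.03 to -0.06. All 10 had fallen on day 3, with a median of -2. PSG11 (-0.57, adjusted p = 0.435), PSG5 (-0.22, adjusted p = 0.637) and PSG4 (-0.19, adjusted p = 0.827) did not pass on day 6, and since these genes share reads their common direction is not that of 10 separate measurements. Against the vehicle of the same dose alone the median was -0.102.

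Of 23 activin, TGF-beta and YAP/SRF genes, 12 were above zero and 11 below, with a median of 0.00578. Beside INHBA and FST, the activin-binding FSTL3 stood at 0.22 (adjusted p = 0.508) after a rise of 0.95 on day 3, and SMAD7, an inhibitor of the pathway, at 0.51 (adjusted p = 0.517). None of 27 matrix genes passed, where 0.0833% of all genes did, after 16 on day 3 (59.3%, against 14% of all genes). The closest were FBN1, the microfibril protein fibrillin 1 (0.51, adjusted p = 0.09, after 1.43 on day 3), and COL11A1, a fibrillar collagen (-0.35, adjusted p = 0.132, after 0.29). For inflammation, none of 21 cytokine and NF-kB genes and none of 18 interferon-stimulated genes passed. At 0.0833% of all genes, lists of this size would seldom hold a passing gene, so these counts do not show that inflammation was unchanged. Among the 13 of the cytokine list that reached the limit of level, 12 were above zero with a median of 0.188, TLR4, the receptor for bacterial lipopolysaccharide, highest at 0.70 (SE 0.26, adjusted p = 0.496). Among all 16816 genes tested, 8979 were above zero, with a median of 0.0129. Values against the vehicle of the same dose alone are not given here for the cytokine list.

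None of 16 p53 targets passed, but 15 were above zero with a median of 0.178, where 8979 of all 16816 genes were above zero with a median of 0.0129. CDKN1A, the cell cycle inhibitor p21, stood at 0.32 (adjusted p = 0.305) and MDM2, which marks p53 for destruction, at 0.20 (adjusted p = 0.594), after rises of 0.58 and 0.50 on day 3. Against the vehicle of the same dose alone, 10 of the 16 were above zero and the median was 0.0395. The 30 S-phase and 30 G2/M genes had medians of -0.00265 and 0.0373, with ranges from -0.17 to 0.08 and from -0.07 to 0.67. Of 15 heat shock genes, none passed, where 0.0833% of all genes did, and the median was 0.0546. On day 3, 9 of 15 had passed (60%, against 14% of all genes) with a median of -0.283. The list of receptor, chaperone and steroid enzyme genes has the same day 3 median and the same day 6 minimum (-0.0752). The lists may share members, so their results may not be separate.

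**Figure D3:**
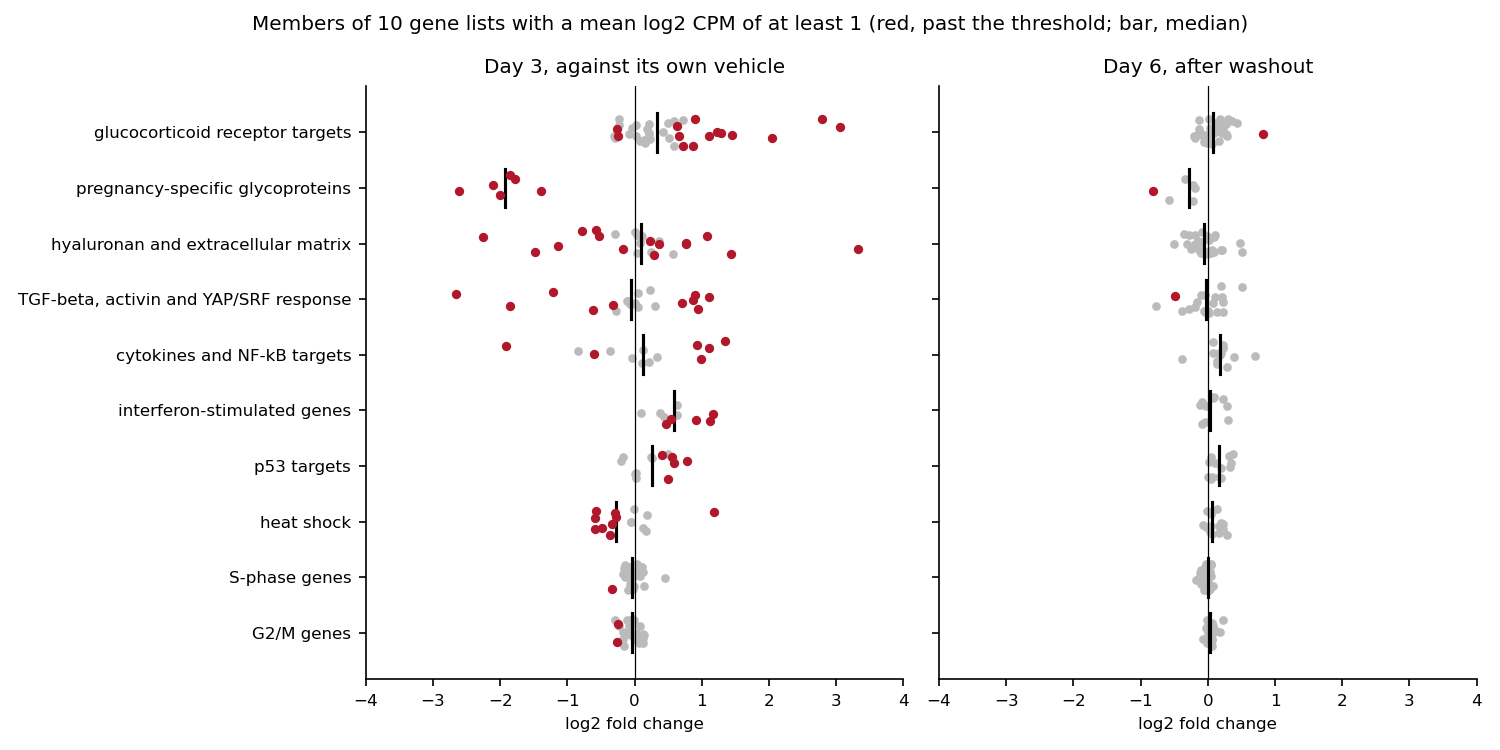
Log2 fold changes of the members of 10 gene lists that reached a mean log2 CPM of 1, on day 3 (left) and after washout (right), with red points past the threshold and black bars at the medians. On day 6 there is 1 red point each for the receptor targets, the pregnancy-specific glycoproteins and the activin and TGF-beta list, and the medians of the 6 pregnancy-specific glycoproteins, -1.94 and -0.278, stand farthest from zero on both days.

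The higher dose of dexamethasone was compared directly with 0.01 µM on day 6, without vehicle libraries. It differed for 528 genes (3.14%; n = 3 and 3), 232 higher (1.38%) and 296 lower (1.76%) at 1 µM. Of the 14 genes, 7 passed: ADPRHL1, CRISPLD2 and NPTX1 were higher and INHBA, PSG1, ABI3BP and IGFBP5 lower at 1 µM. This comparison shares the 3 libraries of 0.01 µM with the one against vehicle, so the count is a description. Over all genes it fell to 343 and 293 without 1 µM replicates 2 and 3 and to 325 and 350 without 0.01 µM replicates 1 and 3. IGFBP5 stood at 4.90, 2.52 and 3.65 CPM after 1 µM, below all libraries of 0.01 µM (log2 difference -1.74, SE 0.19, adjusted p = 8.704e-08). CRISPLD2 stood at 47.1, 50.1 and 51.2 CPM, above all of them (2.14, SE 0.17, adjusted p = 2.155e-10).

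For TXNIP the 1 µM libraries measured 69.8, 60.1 and 68.2 CPM and overlapped those of 0.01 µM. The log2 difference was 0.44 with a 95% interval from -0.18 to 1.06, which does not show that the doses act alike. DHRS2 (0.20, interval -0.28 to 0.67), ALDH6A1 (-0.09, interval -0.32 to 0.14) and NIBAN1 (-0.27, interval -0.45 to -0.09, adjusted p = 0.1042) did not pass either. Among the textbook targets, the 1 µM libraries were higher for TSC22D3 (log2 difference 2.04), PER1 (1.51), KLF9 (1.09) and FKBP5 (0.62). Adjusted p of the edgeR test ran from 2.496e-06 to 0.002207 for these. DUSP1 had mean levels of 146.4 CPM after 1 µM and 89.31 CPM after 0.01 µM. Of the 40 tested members of the list of receptor targets, 13 passed (32.5%, against 3.14% of all genes), 12 higher and 1 lower at 1 µM. NID2 and ABCA8 were higher by 2.09 and 1.80, and DCDC2, FST, F3 and LINC01293 lower, with -1.73, -1.73, -1.64 and -1.54. With the replicate block, or with any 1 of the 6 libraries left out, DCDC2 passed in 1 of 7 fits.

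Hydrocortisone, the natural human glucocorticoid, differs from dexamethasone, which has in addition a fluorine, a methyl group and a second double bond in its A ring. After washout the 2 compounds share 1 matched dose, 0.01 µM, and this 1 pair was compared directly. On day 6 they differed for 130 genes (0.773%, n = 3 and 3), 47 higher (0.279%) and 83 lower (0.494%) with dexamethasone. The same dose on day 3 was not compared here. IGFBP5 stood at 24.2, 32.3 and 28.9 CPM after hydrocortisone, above all dexamethasone libraries (log2 difference of dexamethasone minus hydrocortisone -1.20, SE 0.19, adjusted p = 0.000464). INHBA stood at 40.2, 39.9 and 40.6 CPM after hydrocortisone, also above all of them (-0.78, SE 0.10, adjusted p = 2.866e-05). PSG1 (-0.84), ABI3BP (-1.07), ALDH6A1 (-0.71) and NIBAN1 (-0.54) were lower with dexamethasone as well, with adjusted p from 0.0001245 to 0.0042. These genes, and TXNIP and CRISPLD2 below, were chosen by the comparison against vehicle, which uses the same 3 dexamethasone libraries. Their values in this comparison are therefore a description. FST was lower by 1.16 on the log2 scale (log2 difference -1.16, adjusted p = 0.003179), the collagen COL13A1 by 1.05 (-1.05, adjusted p = 0.01562) and the pseudogene ENSG00000228327 by 1.09 (-1.09, adjusted p = 0.01562).

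TXNIP stood at 13.9, 20.6 and 23.5 CPM after hydrocortisone, below all dexamethasone libraries (log2 difference 1.33, SE 0.31, adjusted p = 0.03339). ARRDC4 was higher with dexamethasone by 1.19 (SE 0.22, adjusted p = 0.001972), CRISPLD2 by 0.76 (adjusted p = 0.01838) and SH3BP1 by 0.74 (adjusted p = 0.03363). For NPTX1, DHRS2 and ADPRHL1 the compounds did not differ past the threshold, with intervals from 0.19 to 0.61 (adjusted p = 0.05055), 0.38 to 1.35 (adjusted p = 0.07847) and 0.19 to 1.35 (adjusted p = 0.243). Nor did FKBP5 (0.32, interval 0.05 to 0.58) or TSC22D3 (0.23, interval -0.27 to 0.73), and these intervals do not show that the compounds act alike. The count fell to 77, 43, 63 and 31 without hydrocortisone replicate 2 (76.77% ribosomal RNA), dexamethasone replicates 2 and 3 and hydrocortisone replicate 3. TXNIP and CRISPLD2 did not pass without hydrocortisone replicate 2, hydrocortisone replicate 3 or dexamethasone replicate 2 (adjusted p from 0.1065 to 0.2281), and TXNIP also missed without dexamethasone replicate 1 (0.07038). SH3BP1, COL13A1 and ENSG00000228327 each lost the call without some of the libraries, whereas IGFBP5, ABI3BP, FST and ARRDC4 passed without any 1 of the 6 libraries.

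Set against the same 4 vehicle libraries, dexamethasone 1 µM changed 1708 genes (10.2%), hydrocortisone 10 µM 150 (0.892%) and hydrocortisone 0.01 µM 15 (0.0892%). These comparisons share their controls with dexamethasone 0.01 µM, so the values are given side by side only. For IGFBP5 the log2 changes were -1.12 with dexamethasone 0.01 µM, -2.87 with 1 µM, 0.08 with hydrocortisone 0.01 µM and -1.26 with 10 µM. For TXNIP they were 1.46, 1.90, 0.13 and 1.49, for CRISPLD2 0.83, 2.96, 0.07 and 1.41, for PSG1 -0.81, -2.21, 0.03 and -1.12, and for NPTX1 0.61, 0.97, 0.21 and 0.84. DHRS2 stood at 1.02, 1.21, 0.15 and 0.34.

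**Figure D4:**
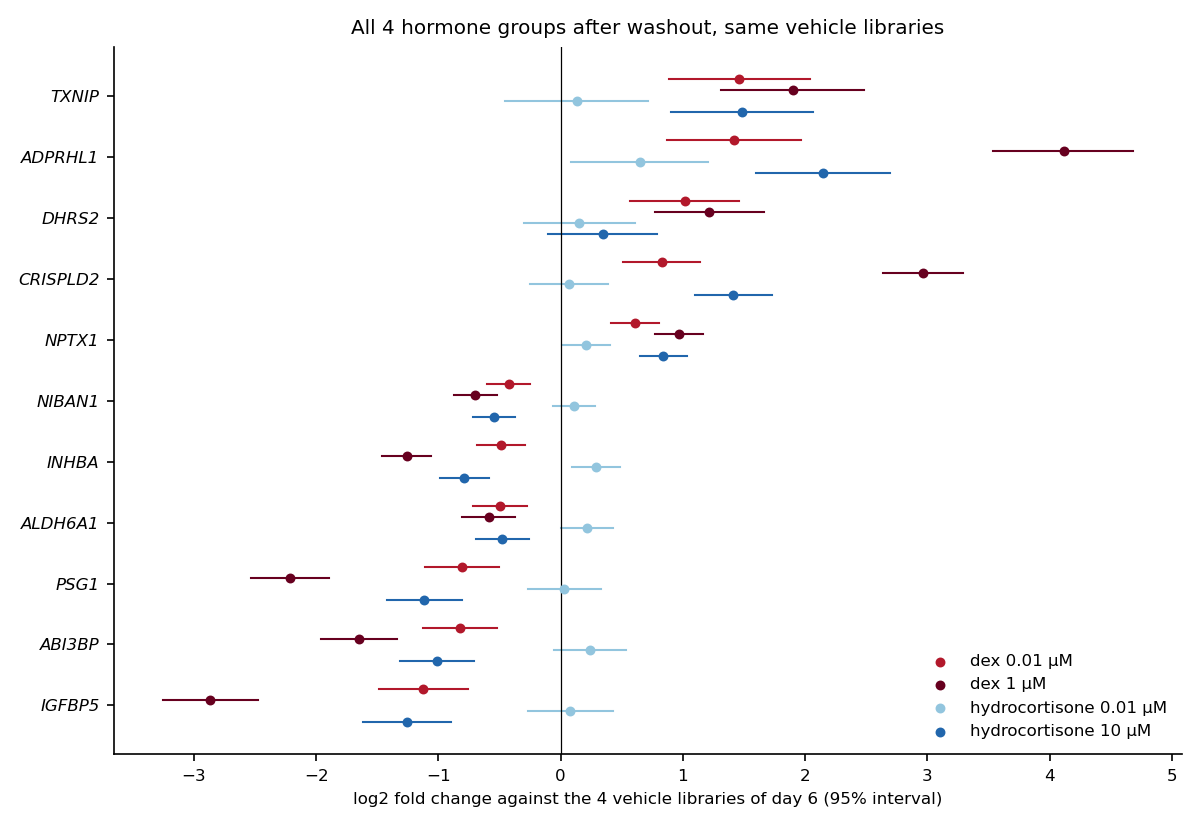
Log2 fold changes with 95% intervals of the 11 genes in the 4 hormone groups of day 6, all against the same 4 vehicle libraries. The points of dexamethasone 0.01 µM (red) and hydrocortisone 10 µM (dark blue) lie near each other for TXNIP, ALDH6A1 and IGFBP5 (-1.12 and -1.26), those of dexamethasone 1 µM lie farthest from zero for each of the 11, and those of hydrocortisone 0.01 µM lie between 0.03 (PSG1) and 0.65 (ADPRHL1).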

How the data were processed

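Total RNA was read as paired ends after a stranded library kit, per the labels' protocols. The deposited values are raw read counts per Ensembl gene in 1 table, per the file headers; FastQC, Subread with featureCounts, STAR and the build GRCh38 stand in the submitters' processing notes, without versions or a strand setting. The table held 20052 genes. Libraries were grouped by their titles and treatment labels.

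Genes were kept by filterByExpr (minimum count 10, total 15; 16816 genes). All 43 libraries entered 1 fit with 17 groups (26 residual degrees of freedom; TMM; edgeR 4.0.16, R 4.3.3, glmQLFit and robust quasi-likelihood tests), where the single vehicle libraries of day 6 are assumed to vary like other groups and each has equal weight in the vehicle mean. P-values were Benjamini-Hochberg adjusted over all genes in each of 8 comparisons (threshold 0.05). Ribosomal RNA genes are the 11 annotated on chromosome 21 between 8200000 and 8500000. The fit was tried on simulated counts that gave all genes the same spread beyond counting noise. That run checks the code and cannot show how reliable the calls are in these libraries. Positions are GENCODE v29.

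Named genes are the 10 largest rises and 10 largest falls past the threshold that reach a mean log2 CPM of 1 without overlap of the groups, the 8 largest each way on day 3, the 5 each way between doses and compounds, up to 4 called members per list, and 6 receptor genes. The 14 called genes are all named; a gene the rule selects in another comparison is not reported here. The members, the 27 lists and this rule were chosen with earlier results of these data known. Alternatives were DESeq2 (1.42.0), RLE factors, filters, other vehicle sets, a replicate block and each library left out. The labels do not tell how separate the replicate flasks were. P-values of the main fit cover only the spread between libraries of the same group, over all 43 libraries, which may be technical. Each vehicle group of day 6 has 1 library, so the spread among these 4 libraries does not enter the main p-values. Replicate pairs of the hormone group differed beyond counting noise (median variance ratio 2.494 to 3.263), as did pairs of vehicle libraries (1.914 to 6.381).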

Additional observations from a re-analysis of the deposited data

Results flagged for a closer look

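In 9 of the 14 genes past the threshold on day 6, the test of the day 6 change minus the day 3 change passed as well. The differences on the log2 scale were -2.70 for ADPRHL1, -1.81 for CRISPLD2, 1.74 for PSG1, 1.41 for IGFBP5, 0.78 for ABI3BP and 0.69 for INHBA, where the day 6 change was the smaller one. They were 1.07 for DHRS2, -0.67 for ALDH6A1 and 2.61 for ABCG2, which had not passed on day 3, and ABCG2 has no count in 1 vehicle library. For DHRS2 the mean hormone level went from 3.01 CPM on day 3 to 4.02 CPM on day 6. Its vehicle mean went from 3.20 CPM (same dose, day 3) to 2.00 CPM (4 libraries, day 6). For ALDH6A1 these means went from 20.1 to 15.5 CPM under hormone and from 17.4 to 22.05 CPM under vehicle. The vehicle means thus differed as well, but they come from unlike sets of vehicle libraries, so a change between the days does not follow from them. The cause was not tested. Adjusted p-values of edgeR's quasi-likelihood test of these 9 differences ran from 1.327e-07 to 0.02022. The 14 genes were chosen by their day 6 change, which is part of the difference, so the count of 9 is a description.

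NID2 had 1 vehicle library far from the other 3: 4.86 CPM in the vehicle of dexamethasone 1 µM, with the next at 2.89 CPM. It is 1 of 31 genes checked in this way, and about 1 in 20 groups is expected to stand out by chance.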

How the results depend on the processing

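The direction of all 14 genes was the same in each alternative that could be fitted (18 to 20 per gene), and IGFBP5 passed in 18 of 20, ABI3BP in 15, NPTX1 in 14, INHBA and PSG1 in 13, NIBAN1 in 12, CRISPLD2 in 11, TXNIP in 9, ADPRHL1 in 8 and DHRS2 and ALDH6A1 in 7. Of genes that did not pass, FST passed in 6 and NID2 and DCDC2 in 2 each of 20. The count of 14 became 8 with at least 10 counts required in each of the 7 libraries, 2 with these 7 libraries fitted alone, 6 with vehicle as 1 group, 60 with the dexamethasone vehicles only, 7 with the vehicle of the same dose only and, in a fit added after seeing the data, 1 with vehicle as 1 group and without the library of 77.12% ribosomal RNA. Leaving out 1 library gave 0 to 23 genes: 0 without hormone replicate 2, 1 without the vehicle of dexamethasone 1 µM, 9 without that of dexamethasone 0.01 µM and 23 without that of hydrocortisone 10 µM. DESeq2 called 14, of which 10 were shared. Without the libraries above 75% ribosomal RNA 10 genes passed, 6 of them shared. Deviations of same-numbered day 6 libraries had correlations of 0.0928, -0.154 and -0.153. These cannot exclude pairing, since each vehicle group has 1 library. Between same-numbered hormone libraries of day 3 and day 6 they were 0.163, -0.0482 and 0.209, against -0.291 to 0.338 for other numbers. The main test of the day difference treats the flasks as unpaired (1101 genes, and 1119 with the replicate block). On day 6 the replicate block called 16 genes, 12 of them shared. On day 3 the block gave 2388 genes, the 4 vehicle groups 3633 and libraries up to 75% ribosomal RNA 1522. For the dose difference the block gave 478 and left-out libraries 293 to 453, and for the compound difference 150 and 31 to 179. Values near zero changed sign without ever passing: with the dexamethasone vehicles only PER1 (-0.031), KLF9 (-0.293), NR3C1 (0.043) and ABCA8 (-0.016), with the vehicle of the same dose PER1 (-0.061), KLF9 (-0.190), NR3C1 (0.081) and ABCA8 (-0.0070), and with the replicate block DUSP1 (0.067) and ABCA8 (-0.016). Over fits without 1 library KLF9 ranged from -0.110 to 0.176, DUSP1 from -0.221 to 0.065, ABCA8 from -0.039 to 0.033 and CERNA2 from -0.043 to 0.183. The cause of these shifts was not tested. The vehicle library of the highest ribosomal share has 3187758 other counts, the fewest of the 7. The cause of the 0 counts in it for ABCG2, ZC3H11A and ENSG00000279369 was not tested.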

Other observations

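Several genes stood just outside the threshold on day 6. PFKFB4, which sets the level of a regulator of glycolysis, had a log2 change of 0.44 (SE 0.11, adjusted p = 0.1141) after 0.43 on day 3, and PPFIA4, a liprin, 0.41 (SE 0.099, adjusted p = 0.1141). Of 24 hypoxia and glycolysis genes none passed, 19 were above zero and the median was 0.04. Of all 16816 genes tested, 0.0833% passed and 8979 were above zero, with a median of 0.0129. OGT, the enzyme that adds N-acetylglucosamine to nuclear and cytoplasmic proteins, was among the genes nearest to it (-0.35, SE 0.077, adjusted p = 0.06006). COL7A1, the collagen of anchoring fibrils, followed FBN1 with 0.70 (SE 0.16, adjusted p = 0.09972). The translation factor EIF4B and its pseudogenes EIF4BP3 and EIF4BP7, which share sequence and may share reads, stood at -0.22, -0.26 and -0.27 (adjusted p = 0.1823 to 0.1829). These genes were chosen after their values were seen.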
